A study of Mus musculus with 25 samples.

Results

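The genes that mark cortical interneurons or encode their neuropeptides, here Gad1, Gad2, Pvalb, Sst, Vip, Npy, Cck, Calb2, Cort and Lhx6, were followed by RNA sequencing in tissue of 25 mice, which the series description calls cortical and the sample labels call brain. They were taken by gene symbol from a deposited table of 54532 genes, each symbol matched 1 row, and all 10 were among the 16450 genes with enough signal to test. The 5 groups held 5 mice each. AD_Veh, AD_LowP and AD_HighP were 5xFAD mice given vehicle, a low dose or a high dose of P, and WT_HighP and WT_Veh were wild-type mice given the high dose or vehicle. 5xFAD mice carry mutant human transgenes, APP among them, driven by Thy1 sequences, which are active in neurons, and deposit amyloid early. P is a natural product derivative. What P is chemically, how much was given for how long, and the age and strain background of the mice are not stated in the labels or the series description. By expression of Xist and of a Y-linked gene, replicates 1 to 3 of each group were males and replicates 4 and 5 females.

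Cortical interneurons are inhibitory neurons that release GABA, which is made from glutamate by the enzymes encoded by Gad1 and Gad2. Lhx6 is a transcription factor kept by interneurons born in the medial ganglionic eminence, chiefly the fast-spiking cells that hold the calcium buffer parvalbumin (Pvalb) and the dendrite-targeting cells that release somatostatin (Sst), many of which also hold neuropeptide Y (Npy) or cortistatin (Cort). Cells of caudal origin include those with vasoactive intestinal peptide (Vip), often with the calcium buffer calretinin (Calb2), and part of the cells with cholecystokinin (Cck). Cck is also made by cortical pyramidal neurons, and Gad1, Gad2, Npy and Sst are made in the neighbouring striatum too. In RNA from whole tissue, fewer cells of a type and less RNA per cell cannot be told apart.

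The peptide precursor genes are known as genes that respond to cAMP and neuronal activity, so the bases just before their starts are shown. In the RefSeq promoter windows (build GRCm38.p6, 250 bases before to 50 after the start), 9 of the 10 genes had an entry, and 5 of these held TGACG or its reverse complement CGTCA, the 5-letter form of the cAMP response element; Gad2 held it and is not printed, and Npy, the remaining peptide precursor, held neither form, as did Gad1, Pvalb and Lhx6. Of all 32851 windows, 20.8% held either form and 1.79% held the whole palindrome TGACGTCA, which contains both. The 100 bases before each start follow, 5′ to 3′ on the gene's strand, with the matching letters in capitals, at chr16:23890845-23890944 on the minus strand for Sst, chr10:5639118-5639217 on the plus strand for Vip, chr9:121495695-121495794 on the minus strand for Cck and chr4:149126764-149126863 on the minus strand for Cort.
Sst: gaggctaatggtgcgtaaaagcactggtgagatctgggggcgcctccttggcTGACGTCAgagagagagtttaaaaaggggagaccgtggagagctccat
Vip: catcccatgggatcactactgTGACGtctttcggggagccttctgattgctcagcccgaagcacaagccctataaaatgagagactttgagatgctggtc
Cck: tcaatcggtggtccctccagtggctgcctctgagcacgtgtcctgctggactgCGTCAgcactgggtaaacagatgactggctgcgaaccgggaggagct
Cort: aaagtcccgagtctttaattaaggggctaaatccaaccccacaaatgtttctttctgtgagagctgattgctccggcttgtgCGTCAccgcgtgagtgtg
Among these, Sst alone held the whole palindrome, whose first base lay 48 bases before the start; the 5-letter form began 79 bases before the start in Vip, 47 in Cck and 18 in Cort. A match is a string of letters and not a measured binding site.

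Cort and Sst encode related peptides that bind the same receptors. The last 42 coding bases before the stop codon, which encode the C-terminal peptide, are shown from the GENCODE transcripts with their longest shared run in capitals.
Sst: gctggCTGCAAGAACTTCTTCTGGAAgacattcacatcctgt
Cort: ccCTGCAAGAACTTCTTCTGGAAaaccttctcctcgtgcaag
The shared run was 21 bases, and no longer run was shared anywhere in the 721-base Sst and 677-base Cort transcripts. The genes lie on chromosomes 16 and 4.

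Libraries held between 15518358 and 17698222 reads assigned to genes, and no 2 libraries were alike within counting noise. Levels are in FPKM, fragments scaled by gene length and by library size, so they can be compared between genes. All 16 markers of excitatory neurons were detected, with summed levels of 1127 to 2206 FPKM. The lists for excitatory neurons, striatum, hippocampus, thalamus and hypothalamus, and choroid plexus held 0 called genes in all 7 comparisons described here. Markers of the striatum, 16 genes that include Drd1 and Penk, summed to between 364 and 874 FPKM in AD_Veh, 108 and 783 in AD_LowP, 111 and 628 in AD_HighP, 203 and 1230 in WT_HighP, and 354 and 1478 in WT_Veh, so the libraries differed in striatal RNA as well as in treatment. Ttr, a choroid plexus gene, exceeded 10 times its median in 5 libraries (1 WT_Veh, 2 WT_HighP and 2 AD_HighP). In 5 others (2 WT_Veh, 1 AD_Veh and 2 AD_LowP) the GC slope, by which levels change with the GC content of genes, was below -0.2 log2 units per 10 GC points.

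Sst was the most abundant of the 10 genes, with a mean of 188 FPKM over the 25 mice, and Cort the least, with 3.97 FPKM. Between them stood Cck (128), Gad1 (54.9), Npy (50.1), Gad2 (48.0), Pvalb (36.9), Vip (9.58), Calb2 (5.83) and Lhx6 (5.48 FPKM). The steps from Sst to Cck, from Cck to Gad1 and from Pvalb to Vip were clear, with the first gene above the next in 23, 24 and 24 of 25 libraries. The neighbours Gad1 and Npy, Npy and Gad2, and Gad2 and Pvalb were in this order in only 16, 15 and 16 of 25 libraries, so their means differed by less than the spread between mice, and Calb2 exceeded Lhx6 in 9 of 25. Cort rested on 5 to 89 reads per library and Calb2 on 57 to 427, against 4828 to 10706 for Gad1, the longest of the transcripts.

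The genes differed widely in how constant they were between mice of one group. Lhx6 had a mean within-group coefficient of variation of 8.03%, and 5.38% of tested genes had a lower one. Gad1 (15.9%), Vip (18.9%), Sst (21.2%) and Npy (22.1%) lay near the median of tested genes, 17.9%. Cort (40.6%), Pvalb (42.0%) and Calb2 (63.5%) varied most: Pvalb ran from 9.12 to 57.9 FPKM and Calb2 from 1.93 to 14.4 FPKM, and both of Calb2's extremes were WT_Veh mice. For these genes the fitted comparisons were correspondingly coarse, with 95% intervals of 0.43- to 1.72-fold for Calb2 and 0.56- to 2.06-fold for Pvalb in AD_Veh against WT_Veh.

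**Figure D1:**
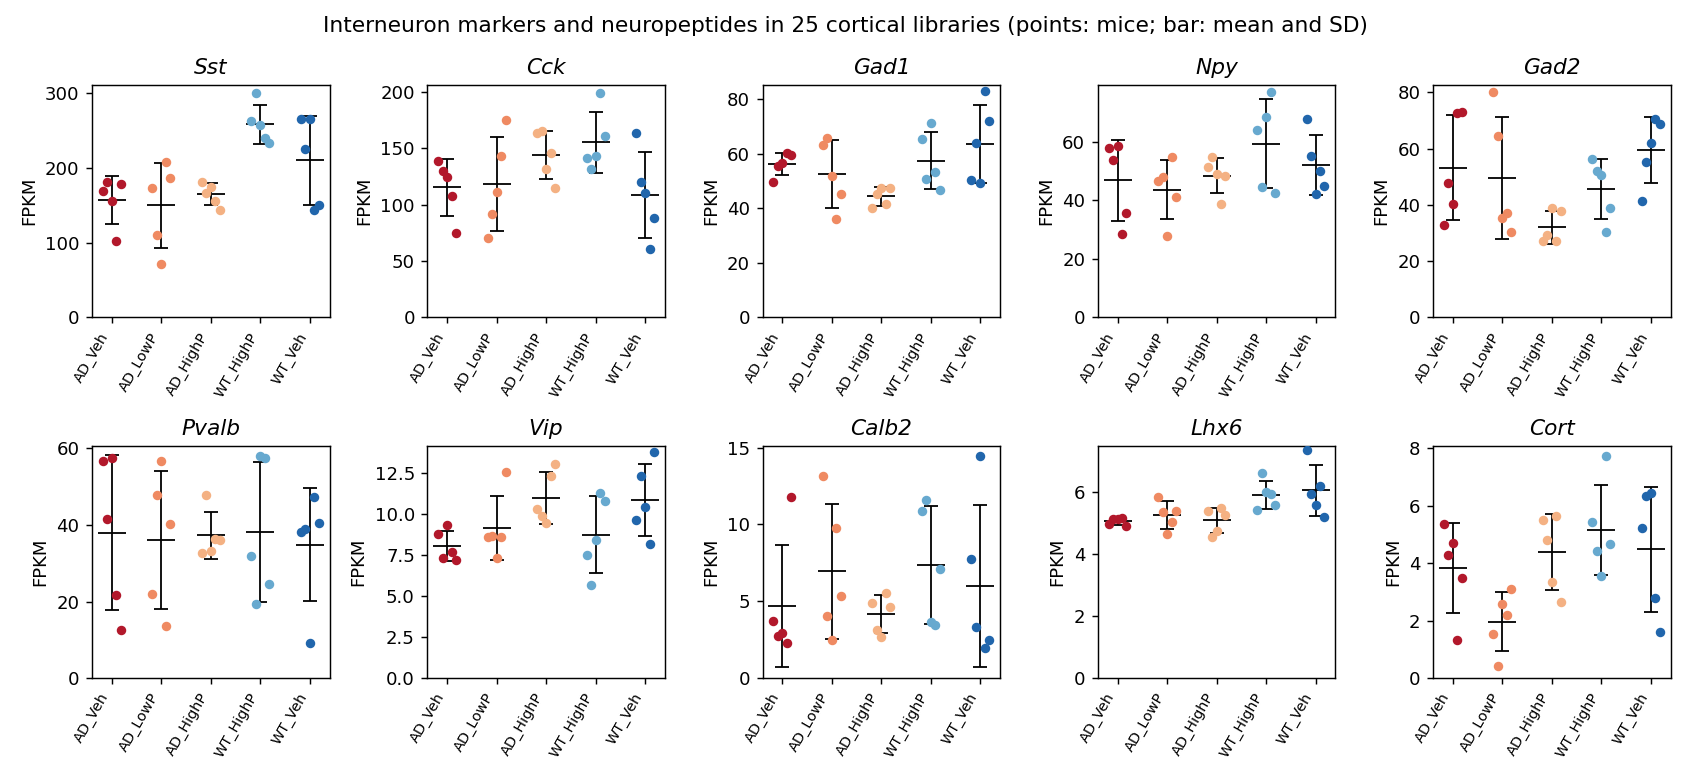
Level of each gene (FPKM, linear axis from 0) in the 5 mice of each group; points are mice, the bar is the group mean and the whiskers are 1 SD. Sst lies between 144 and 181 FPKM in AD_HighP, below all 5 WT_HighP mice at 232 to 299, while Pvalb and Calb2 spread several-fold inside most groups.

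Whether the amyloid model changed these genes was asked by AD_Veh against WT_Veh. None of the 10 genes passed the test (limma on log2(FPKM + 0.5), Benjamini-Hochberg adjusted p under 0.05 over all tested genes), while 3.10% of tested genes did. An unadjusted p under 0.05 was reached by 2 members and by 11.4% of tested genes. The median log2 fold change of the 10 was -0.20, with 2 of them positive, against -0.02 over all tested genes. In the same comparison 17 of 18 genes of plaque-associated microglia rose, Cst7 by 6.01 ± 0.26 on the log2 scale (SE, adjusted p = 1.2e-13), which shows what a large change looks like in these libraries.

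The clearest separation was that of Lhx6. It measured 4.96, 5.12, 5.13, 5.18 and 4.91 FPKM in AD_Veh and 7.36, 5.95, 5.58, 6.20 and 5.20 FPKM in WT_Veh. The groups did not overlap, though the highest AD_Veh mouse (5.18) and the lowest WT_Veh mouse (5.20) nearly met; 0.821% of tested genes were lower without overlap. The log2 fold change was -0.23 ± 0.08 (SE; limma, adjusted p = 0.185), or 0.85-fold with a 95% interval of 0.76 to 0.96.

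Vip measured 8.80, 7.31, 9.33, 7.69 and 7.22 FPKM in AD_Veh and 9.63, 12.3, 10.4, 8.21 and 13.8 FPKM in WT_Veh, and 4 of the 5 WT_Veh mice stood above all AD_Veh mice. Its log2 fold change was -0.39 ± 0.16 (limma, adjusted p = 0.309). Sst measured 169, 181, 156, 103 and 178 FPKM in AD_Veh and 265, 225, 265, 144 and 149.9 FPKM in WT_Veh. In WT_Veh 3 mice were above every AD_Veh mouse and 2 were inside their range, and the log2 fold change was -0.39 ± 0.23 (limma, adjusted p = 0.569). Those 2 WT_Veh libraries, replicates 4 and 5, are among those with low GC slopes and are also the only females of that group. Low slope and sex therefore cannot be told apart there. Without the 5 low-slope libraries the Sst value was -0.75 (limma, adjusted p = 0.143), in an alternative chosen after seeing the data that leaves only males in WT_Veh. Gad1, Gad2, Npy, Cort and Calb2 had log2 fold changes from -0.22 to -0.15, and Pvalb (0.10 ± 0.46) and Cck (0.13 ± 0.23) were slightly positive; their unadjusted p values were over 0.05.

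Among the surrounding lists, 0 of 16 other GABA neuron genes passed. The lowest p there belonged to Kit, a receptor tyrosine kinase of some interneurons (-0.23 ± 0.10, adjusted p = 0.372). Of 19 tested genes of caudal-lineage cells 1 rose, Igf1 (0.81 ± 0.13, adjusted p = 0.000161), a gene that microglia and macrophages also express. None of the 22 other neuropeptide precursors, 11 receptors of these peptides or 16 peptide-processing genes passed. The lowest p values among these were those of Scg2, a secretogranin (-0.34 ± 0.17, adjusted p = 0.447), of the somatostatin receptor gene Sstr2 (-0.43 ± 0.18, adjusted p = 0.341) and of Scg5 (-0.15 ± 0.11, adjusted p = 0.678). None of 22 activity-regulated genes passed, with a median of -0.45 and 1 positive; the immediate early gene Btg2 came nearest (-1.07 ± 0.31, adjusted p = 0.0575).

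The same question under treatment, AD_HighP against WT_HighP, was added after values had been seen. No member passed here either, against 1.75% of tested genes, but 4 had an unadjusted p under 0.05, against 10.3% of tested genes. The median log2 fold change of the 10 was -0.24, with 2 positive, against 0.00 over all tested genes. Sst stood out: it measured 181, 166, 175, 156 and 144 FPKM in AD_HighP and 262, 299, 257, 240.2 and 232 FPKM in WT_HighP. The groups lay far apart, with every AD_HighP mouse at or below 181 and every WT_HighP mouse at or above 232, and 2.55% of tested genes were lower without overlap. The log2 fold change was -0.65 ± 0.23 (limma, adjusted p = 0.237), or 0.64-fold with a 95% interval of 0.46 to 0.89. The call depended on how the spread was estimated: with only these 2 groups in the fit the adjusted p was 0.00149, and with libraries weighted by their quality it was 0.0122. With the striatal level as a covariate the Sst value was -0.80 (adjusted p = 0.0878).

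Gad1 measured 40.1, 45.3, 47.5, 41.5 and 47.5 FPKM in AD_HighP and 65.4, 50.9, 71.3, 53.3 and 46.6 FPKM in WT_HighP, where replicate 5 alone lay inside the AD_HighP range. Its log2 fold change was -0.36 ± 0.15 (limma, adjusted p = 0.395), and with the striatal level as a covariate it was -0.09. Lhx6 measured 5.39, 4.56, 4.74, 5.47 and 5.28 FPKM in AD_HighP and 5.43, 6.62, 5.99, 5.95 and 5.59 FPKM in WT_HighP, so that only the highest AD_HighP mouse and the lowest WT_HighP mouse crossed. The log2 fold change was -0.20 ± 0.08 (limma, adjusted p = 0.36), close to the -0.23 seen under vehicle. Vip had a positive value, 0.34 ± 0.16 (adjusted p = 0.473). For Gad1 and Lhx6 the call also turned on the weighting of libraries, since it gave calls for Gad1 (-0.42, limma, adjusted p = 0.0248) and Lhx6 (-0.20, adjusted p = 0.0469). With the GC slope as a covariate Gad1 and Gad2 were called (limma, adjusted p = 0.0223 and 0.0119). In the main fit Gad2 (-0.49 ± 0.25), Calb2 (-0.64 ± 0.49), Npy (-0.26 ± 0.21), Cort (-0.22 ± 0.37) and Cck (-0.11 ± 0.23) were negative. Pvalb was positive (0.08 ± 0.46), and all of these had an unadjusted p over 0.05.

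Over all treatments, the highest Sst level of the 15 5xFAD mice was 208 FPKM, and 8 of the 10 wild-type mice were above it. For Lhx6, 9 of the 15 5xFAD mice were below every wild-type mouse, with medians of 5.13 FPKM in 5xFAD and 5.95 FPKM in wild-type mice. For the other members at most 5 of the 15 5xFAD mice lay below every wild-type mouse, and at most 4 of the 10 wild-type mice lay above every 5xFAD mouse. The share of all tested genes that separate as far in these pools was not counted. The pools also differ in treatment, since only the 5xFAD mice include a low-dose group, so these counts are descriptions and no test of genotype.

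In AD_HighP against WT_HighP 2 of 16 other GABA neuron genes fell. Slc32a1, the vesicular GABA transporter, averaged 36.2 ± 6.84 FPKM in AD_HighP and 63.6 ± 16.4 FPKM in WT_HighP (SD, n = 5 each); its log2 fold change was -0.78 ± 0.16 (limma, adjusted p = 0.00673). Sp9, a transcription factor of GABA neurons of the ventral forebrain, averaged 1.85 ± 0.65 FPKM in AD_HighP and 4.70 ± 2.17 FPKM in WT_HighP (log2 fold change -1.08 ± 0.25, adjusted p = 0.0217). Both are also expressed in the striatum, whose markers had a median log2 difference of -1.34 here with 0 of 16 called. With the striatal level as a covariate Slc32a1 kept its call (-0.51, limma, adjusted p = 0.0282) and Sp9 lost it (-0.74, adjusted p = 0.0962). Both lost it without the libraries high in Ttr, which takes 2 of the 5 mice from each of these 2 groups. Over all 41 alternatives Slc32a1 was called in 38, the others being the GC corrections and that without Ttr-high libraries, and Sp9 in 32.

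Of 22 activity-regulated genes 3 fell in AD_HighP against WT_HighP. They were Nptx2, a pentraxin that gathers AMPA receptors at synapses onto interneurons (-0.87 ± 0.18, adjusted p = 0.00564), the immediate early gene Fosb (-0.69 ± 0.14, adjusted p = 0.00415) and Egr4 (-0.93 ± 0.24, adjusted p = 0.0476). Nptx2 and Fosb kept their calls under 40 of 41 alternatives each, losing them without the libraries high in Ttr, and Egr4 under 19. Over all 41 the log2 fold change stayed between -0.95 and -0.67 for Nptx2 and between -0.80 and -0.61 for Fosb. Igf1 was higher, as it was under vehicle (0.75 ± 0.13, adjusted p = 0.000701). The lowest p in the remaining lists belonged to Cacna2d2 (-0.55 ± 0.18, adjusted p = 0.151), Vgf (-0.78 ± 0.24, adjusted p = 0.122), Chga (-0.35 ± 0.13, adjusted p = 0.258) and the receptor gene Npy1r (0.40 ± 0.14, adjusted p = 0.253).

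The effect of P without amyloid was read from WT_HighP against WT_Veh. No member passed, against 3.17% of tested genes, and 1 had an unadjusted p under 0.05, against 27.8% of tested genes. The median log2 fold change of the 10 was 0.18, with 6 positive, against 0.00 over all tested genes. Cck was nearest: it measured 142, 131, 143, 199 and 161 FPKM in WT_HighP and 164, 120.2, 109.9, 60.8 and 87.8 FPKM in WT_Veh. In WT_Veh 4 mice were below all WT_HighP mice, and the remaining one, replicate 1, was above 4 of the 5 WT_HighP mice. The log2 fold change was 0.57 ± 0.23 (limma, adjusted p = 0.119).

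Cck levels moved with the GC slope of the library, which was -0.29 to 0.07 in WT_Veh and 0.10 to 0.23 in WT_HighP libraries, groups that did not overlap. With that slope as a covariate the Cck value was -0.18 (limma, adjusted p = 0.946), and with GC correction it was 0.30 (adjusted p = 0.59). Because the slopes of the groups did not overlap, slope and P cannot be told apart in the covariate fit. Without WT_Veh replicate 1 it was 0.74 and passed (adjusted p = 0.0344), and with quality weights it was 0.52 and passed (adjusted p = 0.046). Sst (0.34 ± 0.23), Calb2 (0.46 ± 0.49), Cort (0.28 ± 0.37), Npy (0.17 ± 0.21) and Pvalb (0.18 ± 0.46) had positive log2 values, and Gad2 (-0.39 ± 0.25), Vip (-0.31 ± 0.16), Gad1 (-0.13 ± 0.15) and Lhx6 (-0.03 ± 0.08) negative ones, all with an unadjusted p over 0.05.

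Of the list genes 2 rose in WT_HighP against WT_Veh. Nppc, the precursor of C-type natriuretic peptide, was 1 of 22 other precursors (0.90 ± 0.23, adjusted p = 0.0423), and Chga, the granule protein chromogranin A, was 1 of 16 peptide-processing genes (0.49 ± 0.13, adjusted p = 0.0445). Each kept its call under 21 of 41 alternatives. Both lost it under GC correction, with the GC slope as a covariate, and when any 1 of the 5 WT_HighP mice or of WT_Veh replicates 2 to 5 was left out. No gene of the other lists passed; those with the lowest p were Sp8 (0.66 ± 0.19, adjusted p = 0.0517), Npas3 (0.38 ± 0.12, adjusted p = 0.0682), Egr4 (0.69 ± 0.24, adjusted p = 0.081), Nek7 (-0.27 ± 0.12, adjusted p = 0.147) and the receptor gene Npy5r (-0.35 ± 0.16, adjusted p = 0.147).

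In 5xFAD mice the 2 doses of P were each set against AD_Veh, whose libraries the comparisons share, and against each other. No member passed in any of the 3, and almost none of the other genes did: 0.00608% of tested genes were called in AD_HighP against AD_Veh and 0% in AD_LowP against AD_Veh and in AD_HighP against AD_LowP. An unadjusted p under 0.05 was reached by 3 members and 5.98% of tested genes in AD_HighP against AD_Veh, by 1 member and 2.98% in AD_LowP against AD_Veh, and by 2 members and 6.19% in AD_HighP against AD_LowP.

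In AD_HighP against AD_Veh 2 members did not overlap between the groups. Gad1 measured 40.1, 45.3, 47.5, 41.5 and 47.5 FPKM in AD_HighP and 49.8, 55.5, 56.5, 60.3 and 59.4 FPKM in AD_Veh; 0.699% of tested genes were lower without overlap. All 5 AD_HighP mice were below all AD_Veh mice, and the log2 fold change was -0.34 ± 0.15 (limma, adjusted p = 0.78). Vip measured 10.3, 9.90, 9.47, 12.3 and 13.1 FPKM in AD_HighP and 8.80, 7.31, 9.33, 7.69 and 7.22 FPKM in AD_Veh, where 0.650% of tested genes were higher without overlap. All 5 AD_HighP mice were above all AD_Veh mice, and the log2 fold change was 0.42 ± 0.16 (limma, adjusted p = 0.78).

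Gad2, the second GABA-synthesising enzyme, measured 27.1, 29.1, 38.8, 27.2 and 37.8 FPKM in AD_HighP and 32.7, 47.7, 40.4, 72.7 and 72.9 FPKM in AD_Veh. Its ranges overlapped through a single AD_Veh mouse, and the log2 fold change was -0.67 ± 0.25 (limma, adjusted p = 0.78). Striatal markers were lower in the same comparison, with a median log2 fold change of -1.63, 0 of 16 positive and 0 called. With the striatal level as a covariate the values were -0.03 for Gad1, -0.12 for Gad2 and 0.20 for Vip.

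At the low dose Vip overlapped with AD_Veh, measuring 8.64, 8.68, 7.36, 8.63 and 12.6 FPKM in AD_LowP (log2 fold change against AD_Veh 0.16 ± 0.16, limma, adjusted p = 1). Its group means followed the dose, being 8.07 ± 0.94 FPKM under vehicle, 9.17 ± 1.97 FPKM at the low dose and 11.0 ± 1.60 FPKM at the high dose (SD, n = 5 each), and the difference between the doses was not past the threshold (0.26 ± 0.16, limma, adjusted p = 0.777). The low-dose mean was raised by AD_LowP replicate 5 (12.6 FPKM), without which the log2 fold change of AD_LowP against AD_Veh was 0.05.

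Cort did not follow the dose. Among the 5xFAD groups its mean was lowest at the low dose, and at the high dose it was above that under vehicle, as for Vip. Cort levels were as follows. It measured 1.55, 0.412, 2.58, 2.19 and 3.10 FPKM in AD_LowP and 5.36, 4.28, 4.70, 1.32 and 3.49 FPKM in AD_Veh (log2 fold change -0.85 ± 0.37, limma, adjusted p = 1). In AD_HighP it measured 5.51, 4.82, 3.35, 5.65 and 2.66 FPKM. Against AD_LowP this was a log2 fold change of 1.08 ± 0.37 (limma, adjusted p = 0.773), and the ranges overlapped through AD_LowP replicate 5 and AD_HighP replicate 5. The 2 lowest Cort libraries of AD_LowP, replicates 2 and 1, were both among the low-slope libraries, and replicate 2 held 5 Cort reads. They also had the fewest genes detected of all 25 libraries, 18776 in replicate 2 and 20069 in replicate 1. Without the 5 low-slope libraries the 2 log2 fold changes were -0.38 and 0.61, in an alternative chosen after seeing the data.

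Beyond these, the lowest p of a member in the dose comparisons was that of Gad2 in AD_HighP against AD_LowP (-0.53 ± 0.25, limma, adjusted p = 0.773). Lhx6 was the most tightly bounded: its fold was 1.00 in AD_HighP against AD_Veh with a 95% interval of 0.89 to 1.13, and 1.03 in AD_LowP against AD_Veh with an interval of 0.92 to 1.16. Sst in AD_HighP was 1.06-fold its AD_Veh level with an interval of 0.77 to 1.48. Intervals for Pvalb (0.59 to 2.16) and Calb2 (0.52 to 2.08) left room for changes of more than 1.5-fold in either direction.

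None of the lists held a called gene in these dose comparisons. In AD_HighP against AD_Veh the lowest p in each belonged to Dlx6 among GABA neuron genes (-1.02 ± 0.36), Tac1 among Lhx6-lineage genes (-1.58 ± 0.65), Penk, the proenkephalin gene, among caudal-lineage genes and precursors (-2.16 ± 0.71), Npy1r among receptors (0.37 ± 0.14), Scg5 among processing genes (0.14 ± 0.11) and Btg2 among activity-regulated genes (0.58 ± 0.31), with adjusted p of 0.78 or 0.786 throughout. Dlx6, Tac1 and Penk are also expressed in the striatum. In AD_LowP against AD_Veh they were Slc32a1 (-0.32 ± 0.16), Tac1 (-1.03 ± 0.65), Npas1 (0.42 ± 0.27), Avp (1.06 ± 0.37), Sstr5 (0.55 ± 0.30), Chgb (0.29 ± 0.11) and Homer1 (-0.28 ± 0.20), all with an adjusted p of 1. In AD_HighP against AD_LowP they were Kit (0.24 ± 0.10), Cox6a2 (0.60 ± 0.27), Id2 (0.28 ± 0.13), Scg2 (-0.40 ± 0.17), Npy1r (0.43 ± 0.14), Chgb (-0.24 ± 0.11) and Ier2 (0.89 ± 0.39), all at 0.773.

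Whether high P acted differently in the 2 genotypes was tested as an interaction, the effect in 5xFAD minus the effect in wild-type mice. No member and 0% of tested genes passed, and 6.92% of tested genes had an unadjusted p under 0.05. Vip was the only member among those, with a difference of 0.74 ± 0.23 on the log2 scale (limma, adjusted p = 0.71). The fitted signs were opposite in the genotypes: the Vip value was 0.42 ± 0.16 for P in 5xFAD and -0.31 ± 0.16 for P in wild-type mice, where Vip measured 7.53, 5.71, 8.46, 11.3 and 10.8 FPKM in WT_HighP and 9.63, 12.3, 10.4, 8.21 and 13.8 FPKM in WT_Veh. Under GC correction the wild-type value was 0.00 and the difference 0.51 (adjusted p = 0.997), the GC slopes of WT_HighP and WT_Veh being apart as given above. Under the 41 alternatives the difference ran from 0.51 to 0.83 and was never called. Slc32a1 had the lowest p among GABA neuron genes (-0.73 ± 0.23, adjusted p = 0.71); the lowest in the other lists were those of Cacna2d2, Npas3, Nucb2, Npy1r, Ptprn and Btg2, with adjusted p from 0.71 to 0.729.

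**Figure D2:**
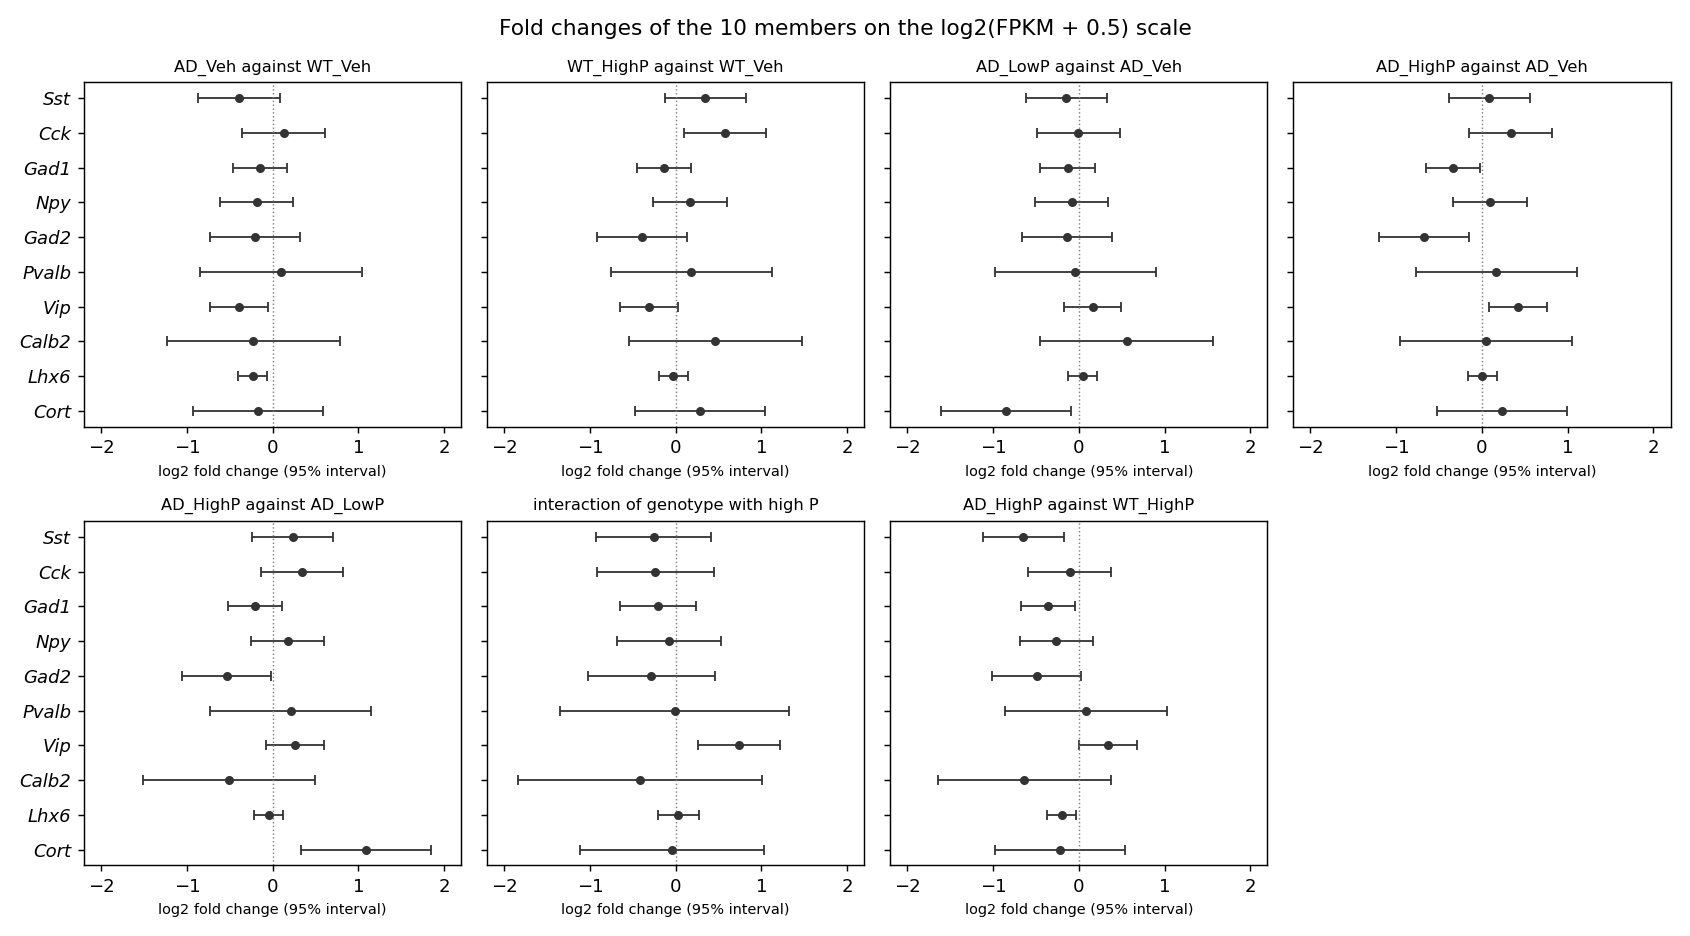
Log2 fold change of each gene on the log2(FPKM + 0.5) scale in the 7 comparisons (in the interaction panel, the difference of 2 log2 fold changes), with points for estimates and bars for 95% intervals from limma, unadjusted. The intervals of Lhx6 are narrow and those of Pvalb and Calb2 wide. Several intervals lie clear of 0 before adjustment, and no value passed after it. Among them are Vip at 0.74 in the interaction, Sst at -0.65 in AD_HighP against WT_HighP and Cort at 1.08 in AD_HighP against AD_LowP.

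Ratios between paired markers were compared over mice. The log2 ratio of Gad1 to Gad2 averaged 0.48 ± 0.16 in AD_HighP and 0.15 ± 0.41 in AD_Veh (SD, n = 5 each; two-sided exact permutation p = 0.143, adjusted over 10 tests 0.714). The log2 ratio of Pvalb to Sst, the 2 large classes of Lhx6-lineage cells, averaged -2.22 ± 0.93 in AD_Veh and -2.71 ± 1.25 in WT_Veh (exact permutation p = 0.508, adjusted 0.976). No ratio passed in any of the 5 pairwise comparisons, with adjusted p from 0.714 to 0.976. The smallest unadjusted exact permutation p that 5 against 5 mice can give is 0.00794. After adjustment over 10 tests a single ratio at that floor would not pass alone, so these tests could not call a change in only 1 ratio and comparison.

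Within groups the genes did not rise and fall as 1 set. The correlations that follow are Pearson r over 25 libraries of log2 values with group means removed; libraries share depth scaling, base composition and the cut of tissue, so they are given as descriptions. Gad1 and Gad2 went together (r = 0.67). Pvalb and Calb2 went in opposite directions (r = -0.79). Sst went with Calb2 (0.67), Npy (0.50) and Cort (0.49) but against Gad1 (-0.52) and Pvalb (-0.43). Cck was opposed to Gad2 (-0.85) and Gad1 (-0.72) and went with Cort (0.60). As deposited, Lhx6 followed none of the others, its largest r being 0.33 with Sst. After correction for GC content the Pvalb and Calb2 value was -0.80 and that of Sst and Calb2 0.72, while Cck and Vip reached 0.78, against 0.38 as deposited. Lhx6 then went with Gad2 (0.55) and Gad1 (0.42) and against Cck (-0.50).

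**Figure D3:**
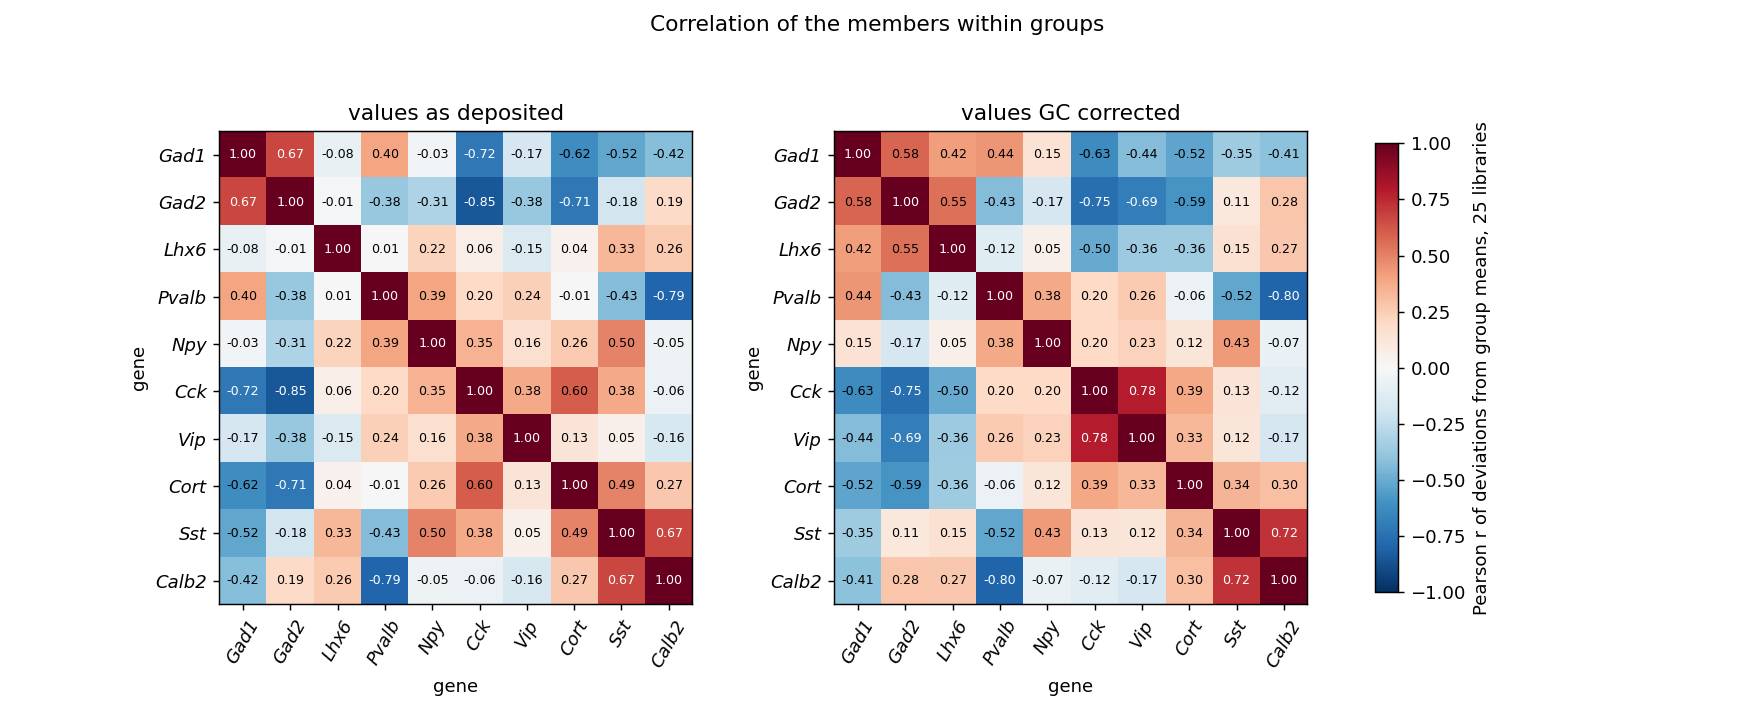
Pearson r between each pair of genes over 25 libraries, from log2(FPKM + 0.5) with group means removed, as deposited (left) and after correction for GC content (right); red is positive and blue negative. Pvalb against Calb2 is -0.79 as deposited and -0.80 corrected, and Gad1 and Gad2 are opposed to Cck in both panels.

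Several members moved with measures of the library. Gad2 and Gad1 rose with the mean level of the striatal markers (r = 0.82 and 0.78), and Cck (-0.76) and Cort (-0.64) went against it. Cck (0.86) and Cort (0.66) went with the GC slope and Gad2 (-0.79) and Gad1 (-0.70) against it, and Cck also went with the excitatory neuron markers (0.77). Calb2 went with the markers of thalamus and hypothalamus (0.69) and Pvalb against them (-0.60); the sums of those markers were 18.9 to 33.8 FPKM over all libraries. For Lhx6, Npy and Sst, r with the GC slope, the striatal list and the thalamic list ran from -0.29 to 0.42. The values of the comparisons under covariates, under GC correction and without the low-slope or Ttr-high libraries are those given beside them.

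**Figure D4:**
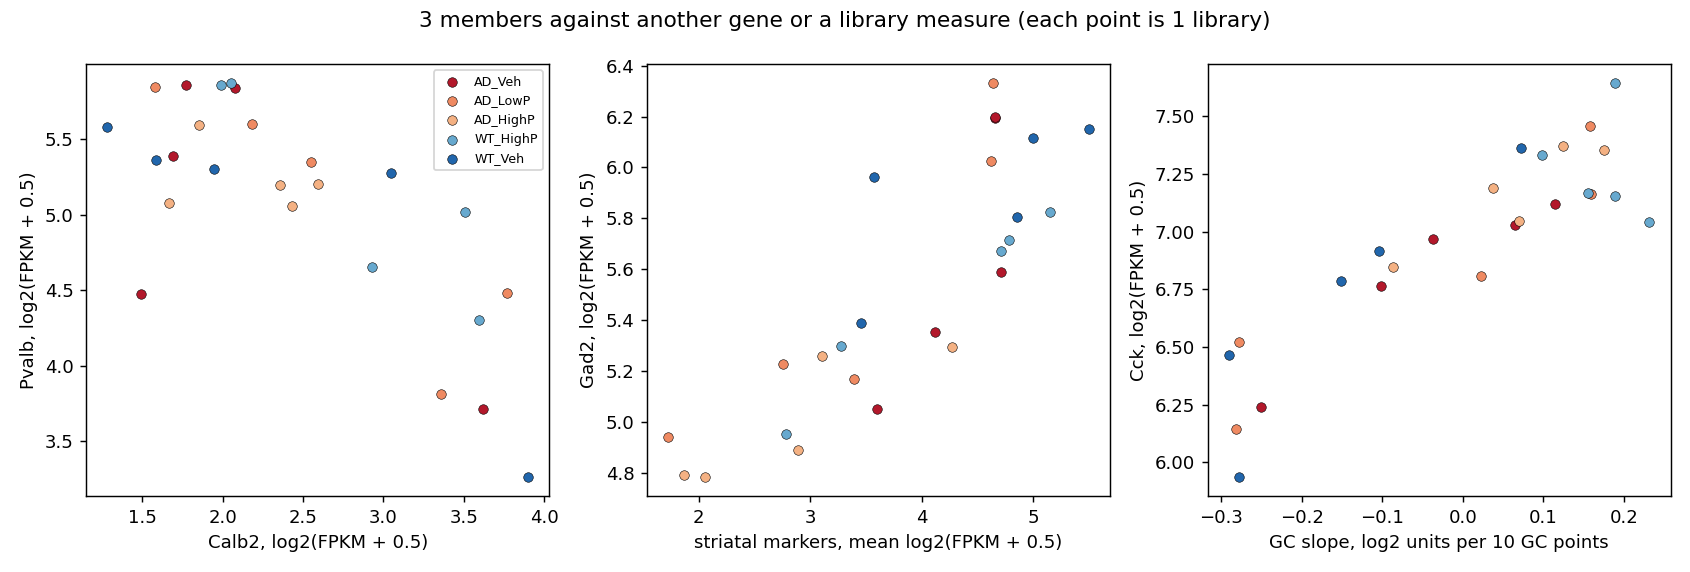
Left, Pvalb against Calb2; centre, Gad2 against the mean level of 16 striatal markers; right, Cck against the GC slope of the library; each point is 1 of 25 libraries coloured by group, and expression is log2(FPKM + 0.5). Pvalb is lowest where Calb2 is highest, Gad2 climbs with the striatal level, where AD_HighP libraries are mostly at the low end, and Cck climbs with the GC slope.

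The genes most like each member were taken by the same correlation among all other genes that averaged 1 FPKM or more, leaving out unnamed gene models. For Pvalb they were Vamp1 (0.96), a synaptic vesicle protein, Syt2 (0.95), the fast calcium sensor of release, and Lamp5 (0.94), a membrane protein of some interneurons and pyramidal cells. For Calb2 they were Dlk1 (0.91), Grhl1 (0.90) and Hap1 (0.89), and for Gad2 Gpr83, Klhl13 and Ypel2 (0.96, 0.95 and 0.95). Gad1 was nearest to Arpp19 (0.92), Sertad4 (0.92) and Atp2b1 (0.92), and Sst to Ap2s1 (0.92), Mif (0.91) and Ctxn1 (0.89). Cck was nearest to Slc25a28, Vps37d and Kifc2 (0.92 each), Cort to Smg9 (0.87), Ppp5c (0.86) and B4galt7 (0.85), Vip to Serpini1 (0.82), Tollip (0.81) and Ndfip1 (0.78), and Npy to Cox14 (0.81), Mrpl4 (0.80) and Rab11b (0.78). Lhx6 had the loosest neighbours, Tpra1 (0.74), Uckl1 (0.72) and Pglyrp1 (0.69). After GC correction Vamp1, Gpr83, Dlk1, Ap2s1, Serpini1 and Slc25a28 stayed first for their members, and the nearest to Gad1, Npy, Cort and Lhx6 became Scn4b (0.92), Mrpl4 (0.83), B4galt7 (0.79) and Amz2 (0.83).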

How the data were processed

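RNA from the cortex (brain in the sample labels) of 25 mice was grouped by the labels' genotype and treatment, 5 to a group; the animals are distinct, by the design text. Libraries were strand-specific and from poly(A)-selected RNA, per the labels' protocols. HISAT2 was the aligner and mm10 the build, per the submitters' processing notes; how reads were counted is not stated there. The authors deposited FPKM values per gene, with gene lengths. FPKM times length gave whole multiples of 1 read for 100% of nonzero values (tolerance 0.01), hence the read numbers, which cover counting error only.

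A gene was tested if 5 or more libraries reached 0.5 FPKM. Values were log2(FPKM + 0.5), a scale that understates changes of low genes, fitted with limma 3.58.1 (R 4.3.3) with group means over all libraries, a variance trend, two-sided tests and Benjamini-Hochberg adjustment within a comparison. The fit was tested on simulated data. Members and gene lists were chosen with earlier results of these data known. Named were all members, up to 4 called genes of each other list by size of change or, with none called, that of lowest p, and the 3 genes most like each member. GC correction removed from each library a smooth of log2 values on gene GC content, known for 99.9% of tested genes. Gad1os, antisense to Gad1 and overlapping it, averaged 0.185 FPKM. Ratios were tested over mice by exact permutation (Python 3.11.15, numpy 2.4.6). Alternatives covered the pseudocount, filter, scaling, GC content, striatal level, sex, replicate block, weights and each mouse left out. The Lhx6-lineage list is not reported here for AD_Veh against WT_Veh.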

Additional observations from a re-analysis of the deposited data

Results flagged for a closer look

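In each of the 50 sets of 5 mice (10 genes in 5 groups) the highest or lowest mouse was compared with the rest by the ratio of its gap to the whole range. It was set apart in 4 sets; chance sets apart about 1 in 20. Pvalb was 47.7 FPKM in AD_HighP replicate 2, where the other mice of that group had 32.8 to 36.4 FPKM. Pvalb was 9.12 FPKM in WT_Veh replicate 3, with the others at 38.3 to 47.4 FPKM. The same mouse had the highest Calb2 level of all libraries, 14.4 FPKM, and it was not set apart within its group for that gene. Vip was 12.6 FPKM in AD_LowP replicate 5, with the others at 7.36 to 8.68 FPKM. Calb2 was 11.8 FPKM in AD_Veh replicate 5, with the others at 2.31 to 3.71 FPKM, and Pvalb was at its group's lowest in that mouse, 12.6 FPKM.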

How the results depend on the processing

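Over 41 alternatives in 7 comparisons, 2861 of 2870 member values stayed on the same side of the threshold without a reversal. No member was called in the reported fit, so a value could change side only by gaining a call. Leaving out a mouse of a group not compared does not alter the fold, so this share says little about how stable the folds are. No member was called under any of them in AD_Veh against WT_Veh, in the 3 dose comparisons or in the interaction. Sign changed in 132 values, and in only 1 of these did a fit have an unadjusted p under 0.05. In WT_HighP against WT_Veh 1 member, Cck, was called with array weights, and 0 to 1 when single mice were left out (1 without WT_Veh replicate 1); the Cck value was -0.18 with the GC slope as covariate, against 0.57. In AD_HighP against WT_HighP 1 member was called with only the groups compared (Sst), 2 with the GC slope as covariate (Gad1, Gad2) and 3 with array weights (Gad1, Sst, Lhx6). The count of all called genes moved far more in WT_HighP against WT_Veh, 522 as reported and 0 to 3371 over alternatives, with 0 when WT_HighP replicate 3 or WT_Veh replicate 5 was left out, without a filter on low values, with the GC slope as covariate and without the libraries high in Ttr. It was 346 to 811 (510 reported) in AD_Veh against WT_Veh and 131 to 970 (288 reported) in AD_HighP against WT_HighP, and at most 9 in the others. Same-numbered mice did not deviate together (median r 0.02 over 50 pairs, 3 of 25 libraries nearest to their own number), so they were not taken as pairs. Replicates 1 to 3 were male and 4 and 5 female in every group, so the block also carries sex. With the replicate number as a block no member was called (0), and called genes numbered 218 in WT_HighP against WT_Veh. The marker ratios had adjusted exact p of 0.317 or more throughout. With the replicate block the smallest unadjusted exact p possible is 0.0625, so no ratio could pass there. Count-model tests on the recovered reads were not run, since FPKM is the deposited unit; limma-voom on those reads, added after seeing the data like the low-slope exclusion, called no member. Depth limited Cort most, with 5 to 89 reads per library.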
